A study of Homo sapiens with 12 samples.

Results

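The genes described here are 41 genes of glycolysis, of glucose and lactate transport and of the response to low oxygen, taken by gene symbol from a table of raw read counts for 58884 human genes. All 41 symbols were matched to a row of that table. RNA had been sequenced from U2932 and TMD8 after 4 h with 20 µg/mL of rituximab (R), ofatumumab (OF) or a human IgG1 isotype control. U2932 and TMD8 are established lines of diffuse large B-cell lymphoma (DLBCL) that the study's methods place in the activated B-cell subtype. A figure legend of the study instead lists U2932 in the germinal center B-cell subtype. R and OF are monoclonal antibodies that bind separate regions of CD20, a surface protein of B cells encoded by MS4A1. There were 2 libraries for each of the 6 conditions, 12 in all, and the replicates of a line were cultures split from it and grown apart for a week, so each line is a single model and not a sample of donors. The sources used here name no engineered allele in the cells, and the control cells also received a human IgG.

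Glycolysis breaks glucose down to pyruvate in the cytosol, and lactate dehydrogenase turns pyruvate into lactate so that the pathway can run on without respiration. The transcription factor HIF-1 joins an oxygen-labile alpha subunit, encoded by HIF1A, to a stable beta subunit. In oxygenated cells prolyl hydroxylases of the EGLN family mark the alpha subunit for destruction, and at low oxygen it builds up and binds a short DNA core near genes for glucose uptake, nearly every glycolytic enzyme, vascular growth factors, collagen hydroxylases and mitophagy receptors. Proliferating lymphoma cells also run glycolysis in normal oxygen, where MYC drives many of the same genes. The 41 members were put into 9 groups by role, from the transporters and enzymes, in pathway order, to the oxygen sensors and other HIF-1 targets.

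The sequences below are the 250 bases before a RefSeq start of transcription, for 7 members with a single window given, from RefSeq on GRCh38.p14. They are shown to let the HIF-1 core be seen where it was searched for, since the first 5 genes were higher with both antibodies in U2932, while ANKRD37 and EGLN1, HIF-1 targets too, did not pass the test there. Each runs 5′ to 3′ on the gene's strand and ends at the base before the start, and capitals mark the HIF-1 core ACGTG or GCGTG on either strand. Where the core lies in CACGTG, the E-box that MYC and MAX also bind, it is read on both strands.
PLOD1: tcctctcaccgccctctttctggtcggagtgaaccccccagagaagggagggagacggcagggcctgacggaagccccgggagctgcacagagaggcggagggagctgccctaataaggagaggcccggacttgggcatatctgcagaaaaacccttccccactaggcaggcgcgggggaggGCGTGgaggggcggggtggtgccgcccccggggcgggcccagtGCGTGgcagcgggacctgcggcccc
PFKFB4: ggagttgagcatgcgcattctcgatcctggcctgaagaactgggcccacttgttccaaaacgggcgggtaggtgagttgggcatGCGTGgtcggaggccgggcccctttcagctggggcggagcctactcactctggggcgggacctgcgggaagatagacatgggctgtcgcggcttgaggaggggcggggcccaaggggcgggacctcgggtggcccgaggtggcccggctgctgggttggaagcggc
GAPDH: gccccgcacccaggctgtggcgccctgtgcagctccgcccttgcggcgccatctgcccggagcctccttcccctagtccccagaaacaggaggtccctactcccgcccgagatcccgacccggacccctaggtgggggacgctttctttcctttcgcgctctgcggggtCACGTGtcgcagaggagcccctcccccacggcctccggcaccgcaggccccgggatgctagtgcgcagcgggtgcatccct
ALDOC: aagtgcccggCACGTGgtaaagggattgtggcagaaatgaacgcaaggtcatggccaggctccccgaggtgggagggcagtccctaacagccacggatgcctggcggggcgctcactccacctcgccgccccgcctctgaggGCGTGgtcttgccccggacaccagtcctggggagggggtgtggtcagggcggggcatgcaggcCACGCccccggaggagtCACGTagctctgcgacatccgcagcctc
PKM: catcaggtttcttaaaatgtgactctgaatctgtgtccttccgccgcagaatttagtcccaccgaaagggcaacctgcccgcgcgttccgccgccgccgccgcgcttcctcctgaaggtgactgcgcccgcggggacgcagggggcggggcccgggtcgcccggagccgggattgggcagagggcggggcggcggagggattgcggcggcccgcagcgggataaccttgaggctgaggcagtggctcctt
ANKRD37: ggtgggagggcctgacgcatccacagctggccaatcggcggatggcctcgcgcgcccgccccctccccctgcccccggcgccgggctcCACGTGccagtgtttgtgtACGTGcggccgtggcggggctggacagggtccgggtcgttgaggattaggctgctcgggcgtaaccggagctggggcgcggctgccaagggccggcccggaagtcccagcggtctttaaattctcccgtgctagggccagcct
EGLN1: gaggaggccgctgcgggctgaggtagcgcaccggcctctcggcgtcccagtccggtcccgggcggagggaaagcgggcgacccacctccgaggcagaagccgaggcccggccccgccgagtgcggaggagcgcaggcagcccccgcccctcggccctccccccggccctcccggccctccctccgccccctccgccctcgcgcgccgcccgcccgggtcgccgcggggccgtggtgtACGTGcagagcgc
These windows lie at chr1:11934467-11934716 (plus strand) for PLOD1, chr3:48556804-48557053 (minus strand) for PFKFB4, chr12:6535014-6535263 (plus strand) for GAPDH, chr17:28576896-28577145 (minus strand) for ALDOC, chr15:72231191-72231440 (minus strand) for PKM, chr4:185396591-185396840 (plus strand) for ANKRD37 and chr1:231422288-231422537 (minus strand) for EGLN1. Each lies inside the span of its gene in GENCODE 29, chr12:6533927-6538374 for GAPDH, so starts further upstream are annotated. RefSeq windows were given for 35 of the 41 members, and 29 of the 35 held the core in at least 1 window, as did 47.4% of the 27303 genes with a window. Over single windows, 60% of the members' 65 windows and 43.2% of all 35114 windows held it. Among the 19 members higher with both antibodies in U2932 the core stood in 14 of the 16 with a window, and among the other 19 tested there also in 14 of 16. The E-box CACGTG stood in 4 of 16 members in each set and in 7.73% of all genes, or 12.3% of the members' windows and 6.35% of all windows. The heat shock motif GAANNTTC or TTCNNGAA stood in a window of 1 of the 35 members and of 14% of all genes, or in 1.54% of the members' windows and 11.6% of all windows. A match says only that these letters are in the window.

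The libraries held 15440226 to 27110612 counts. Markers fixed for other cell types were at or near 0, and the 4 erythroid and platelet markers had no count in any library. Per 1e6 counts of a library, without TMM, the 4 T-cell markers summed to at most 1.14 and the 4 myeloid markers to at most 1.48. The 6 B-cell markers summed to 2040 to 3276 on that scale. Of the 4 epithelial or stromal markers, EPCAM had 509 to 833 counts in U2932 and 0 to 3 in TMD8, whereas KRT8 had 0 to 3 and 36 to 62 and COL1A1 3 to 9 and 17 to 147, the last highest in isotype replicate 2 and OF replicate 2 of TMD8. MS4A1, the antibodies' target, had 856 to 1681 CPM (counts per 1e6, scaled by TMM) in U2932 and 946 to 2348 in TMD8. A pair of TMD8 libraries, isotype replicate 2 and OF replicate 2, differed from the rest of that line. Ribosomal protein genes took 6.57% and 7.22% of the reads counted in them and 10.1% to 10.8% elsewhere in TMD8, while mitochondrial genes took 3.99% and 3.73% and elsewhere 5.70% to 6.23%. TMD8 results are therefore given with and without these libraries.

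Not every member could be measured. MIF, a cytokine, had no count in any library, and 61.95% of its exon bases are shared with other genes in GENCODE 29, among them AP000350.4 on the same strand. ALDOA, the main aldolase of most cells, had 426 counts over the 12 libraries, and 42.31% of its exon bases are shared with AC093512.2 on the same strand. Reads that fall on 2 genes are commonly left uncounted, and whether counting used the strand is not given in the sources used here, so the counts of these 2 genes are uncertain. PLOD2 had 5 counts in all. EGLN3 had no count in the 6 U2932 libraries, and ADM had 7 counts over the 6 TMD8 libraries. After the filter on low counts, 38 members were tested in each cell line and 39 in the comparisons that used both lines.

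Per length, GAPDH, ENO1, PKM, TPI1 and LDHA were the highest members in both lines under isotype. Levels of different genes are compared here only as counts per length, scaled to one sum in every library (TPM), with the longest coding transcript of each gene. Not all enzymes of the later steps were high, as ENO2 had 33.9 TPM in U2932 and 5.30 in TMD8. GAPDH, the dehydrogenase in the middle of the pathway, was highest, at 3861 ± 6.78 TPM (SD, n = 2) in U2932 and 3351 ± 375 in TMD8. ENO1, the main enolase, followed at 1657 ± 25.7 TPM in U2932 and 2089 ± 166 in TMD8, and PKM, pyruvate kinase, at 1437 ± 167 and 1462 ± 649. The PKM libraries of TMD8, at 1002.5 and 1921 TPM, spanned the levels of the next genes. TPI1, the triose phosphate isomerase, had 1099 ± 5.60 TPM in U2932 and 1016 ± 97.4 in TMD8. LDHA, the lactate dehydrogenase subunit, had 974 ± 32.5 and 1176 ± 89.2 TPM, above TPI1 in TMD8 and below it in U2932, where the order turned round with the mean transcript length (LDHA 1206, TPI1 1157). Near the bottom stood SLC2A3, a high-affinity glucose transporter, at 3.81 ± 0.0128 TPM in U2932 and 1.35 ± 0.161 in TMD8. PFKFB4, which makes and removes the small activator of phosphofructokinase, was as low, at 1.49 ± 0.145 and 3.07 ± 0.434 TPM.

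**Figure D1:**
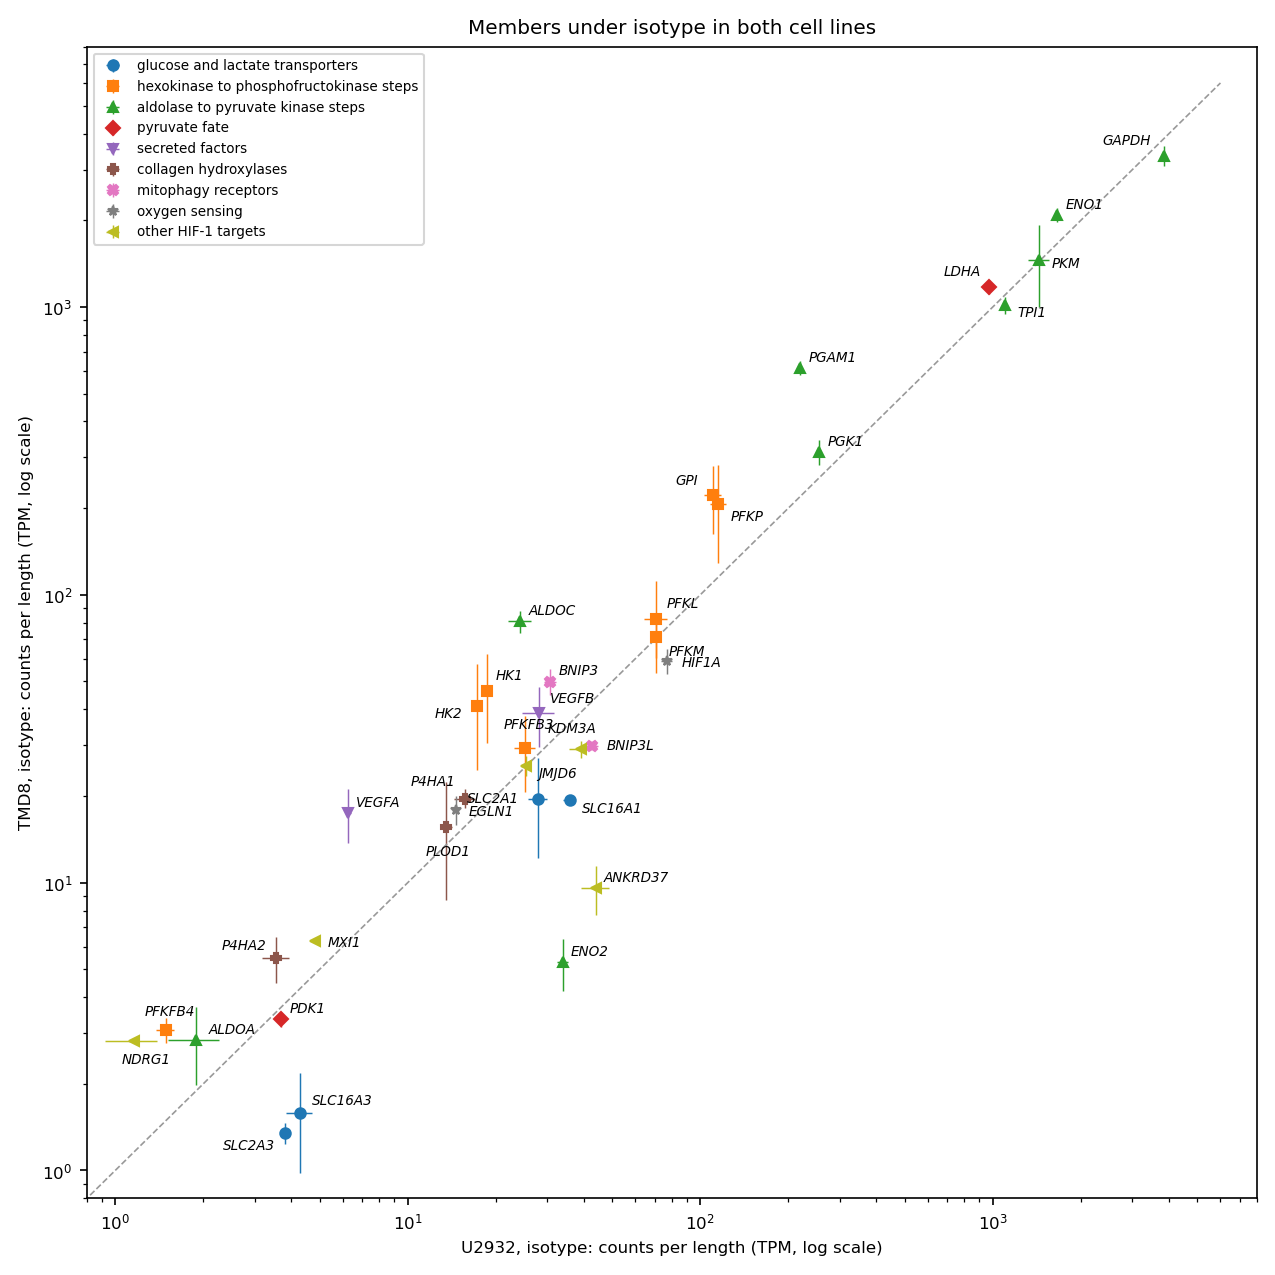
Counts per length (TPM, log scales) of the members under isotype in U2932 (x axis) and TMD8 (y axis). Points are means of 2 libraries, whiskers span both, symbols give the role and the dashed line marks equal levels; members under 0.8 TPM in either line (ADM, EGLN3, MIF, PLOD2) are left out. GAPDH stands at the top right at 3861 and 3351 TPM, and ENO2 and ANKRD37 lie farthest under the line.

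The first question was how the 2 lines differed before anti-CD20 treatment. All p-values here measure the spread between 2 cultures of one line, and fewer cells of a kind and less RNA per cell cannot be told apart in bulk RNA. Under isotype, 27 of the 39 members tested differed between U2932 and TMD8 (edgeR quasi-likelihood test, Benjamini-Hochberg adjusted p under 0.10), 6 higher and 21 lower in U2932, where 33.2% of all 16187 genes tested were higher and 33.7% lower. Those higher in U2932 included 3 of the 4 transporters: SLC2A3, SLC16A1 and SLC16A3, the last 2 encoding lactate carriers. Of the 8 members from hexokinase to phosphofructokinase, 6 passed, and these 6 were lower in U2932.

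HK1, a hexokinase, had 28.2 and 28.4 CPM in the U2932 isotype libraries and 59.1 and 94.3 in those of TMD8, a log2 difference of −1.44 ± 0.19 (SE; adjusted p = 4.68e-05). HK2, the hexokinase most closely tied to HIF-1, differed by −1.37 ± 0.23 (adjusted p = 0.000379), and GPI, which makes fructose phosphate, by −1.14 ± 0.15 (adjusted p = 5.01e-05). In each of the 3 the U2932 libraries lay below those of TMD8. The later steps gave 1 higher and 5 lower of 9, with isoforms of one enzyme on opposite sides. ENO2, the neuronal enolase, had 37.6 and 34.9 CPM in U2932 against 5.77 and 6.82 in TMD8 and was 5.72-fold higher in U2932, whereas ENO1 was lower there by 0.51 ± 0.16 on the log2 scale (adjusted p = 0.0149). ALDOC, the brain-type aldolase, was lower in U2932 (−1.91 ± 0.19), as was PGAM1, phosphoglycerate mutase (−1.66 ± 0.13). GAPDH (0.00 ± 0.22), TPI1 and PKM did not pass.

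Among the HIF-1 targets outside glycolysis, ADM gave the widest gap. ADM, which encodes the vasodilator adrenomedullin, had 1252 and 1226 counts in the U2932 isotype libraries and 0 and 5 in those of TMD8. EGLN3, a prolyl hydroxylase that HIF-1 itself induces, went the other way, with no count in U2932 and 15 and 41 counts in TMD8, so that U2932 was at least 8.703-fold lower if 3 counts per library are taken as the floor. ANKRD37, an ankyrin repeat protein, was 4.02-fold higher in U2932 (adjusted p = 5.04e-05), though 35.23% of its exon bases are shared with UFSP2 on the opposite strand. VEGFA, the main vascular growth factor, had 8.15 and 8.59 CPM in U2932 against 23.5 and 28.3 in TMD8 (−1.63 ± 0.14, adjusted p = 1.45e-06). HIF1A itself did not pass (0.21 ± 0.12, adjusted p = 0.153). With the replicate number as a block 32 members passed, 10 higher and 22 lower, against 36.8% of all genes in each direction. Scaled by total counts alone, the median of all genes moved from −0.02 to 0.11 and 27 members passed, 9 higher and 18 lower.

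The next comparison asked what R changed in U2932. With R, 22 of the 38 members tested were higher than with isotype and 1 was lower, in a fit where 16.8% of all 14635 genes tested were higher and 17.4% lower. The median log2 change was 0.30 over the members and −0.02 over all genes tested. With a change of at least 1.5-fold as a further condition, 9 members were higher and 1 lower, against 5.19% and 5.02% of all genes. In sum, the members held 0.985% to 1.02% of all counts in the isotype libraries and 1.41% to 1.45% in the 4 anti-CD20 libraries of U2932. Ribosomal protein genes moved in the same libraries, from 4.51% to 4.82% of counts under isotype to 6.10% to 6.63% with antibody, and their part in the result was not tested.

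Each of the 9 members from aldolase to pyruvate kinase was higher with R, with a median log2 change of 0.68, and 8 of the 9 were higher with OF, with a median of 0.56. GAPDH had 2726 and 2753 CPM under isotype, 4229.6 and 4593 with R and 4064 and 4149.6 with OF. PKM had 1593 and 1361 CPM under isotype, 2661 and 2689 with R and 2878 and 2975 with OF. ENO1 went from 1449 and 1492 CPM under isotype to 2338 and 2379 with R and 2250.3 and 2255 with OF. In all 3 the 4 anti-CD20 libraries lay well above both isotype libraries and close to each other. The log2 changes with R were 0.69 ± 0.07 for GAPDH (adjusted p = 5.07e-08), 0.86 ± 0.08 for PKM (adjusted p = 8.35e-09) and 0.68 ± 0.07 for ENO1 (adjusted p = 8.03e-08).

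The remaining enzymes of these steps moved less in most cases. ALDOC rose 1.65-fold with R (adjusted p = 3.13e-05), PGAM1 and PGK1, the phosphoglycerate kinase, rose 1.43-fold each, ENO2 1.37-fold and TPI1 1.27-fold (adjusted p = 0.00129). ALDOA, whose counts are uncertain, had 32 and 22 counts under isotype against 45 and 46 with R, and its change passed with R (1.05 ± 0.30, adjusted p = 0.00954) but missed the limit with OF, at 29 and 35 counts (0.62 ± 0.32, adjusted p = 0.147). LDHA, the next enzyme on, had 866 and 915 CPM under isotype and 1197 to 1415 with the antibodies, and rose 1.48-fold and 1.37-fold (adjusted p = 7.22e-06 and 0.000119, R first).

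Earlier steps and transport responded unevenly. PFKFB4 was the exception, with 2.15 and 1.88 CPM under isotype against 5.45 and 8.10 with R and 5.20 and 7.20 with OF. Its rise was 3.36-fold for R (log2 1.75 ± 0.23, adjusted p = 2.93e-06) and 3.08-fold for OF (log2 1.62 ± 0.24, adjusted p = 1.05e-05). Its sister enzyme PFKFB3 rose 1.24-fold and 1.34-fold, PFKP, the platelet phosphofructokinase, 1.22-fold and 1.31-fold, and GPI 1.23-fold and 1.29-fold, all with R first and OF second. The hexokinases HK1 and HK2 and the phosphofructokinases PFKL and PFKM did not pass with either antibody, with log2 changes from 0.02 to 0.21. Of the 4 transporters SLC16A1, the lactate carrier, passed with both (log2 0.36 ± 0.10 with R and 0.23 ± 0.10 with OF), SLC2A1 and SLC2A3 passed with OF alone (0.25 ± 0.10 and 0.48 ± 0.18), and SLC16A3 did not pass (0.19 ± 0.16 and 0.34 ± 0.16). No transporter or enzyme of these steps was lower.

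**Figure D2:**
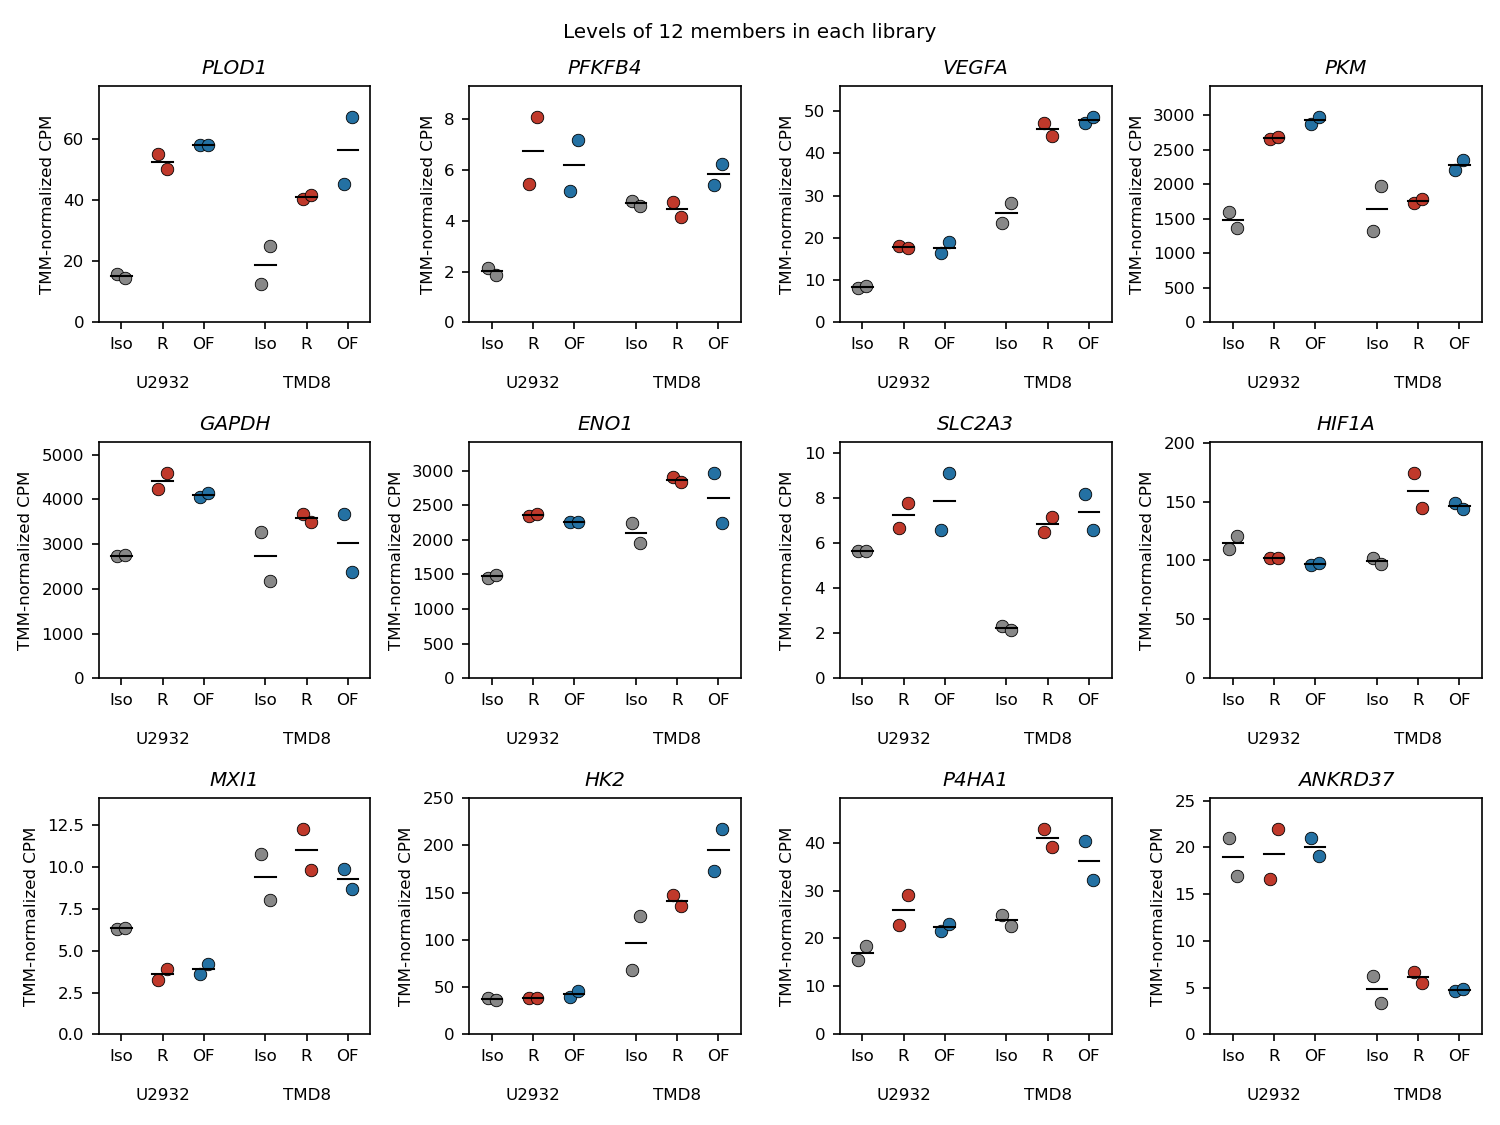
TMM-normalized CPM of 12 members in each library, by cell line and antibody (Iso, isotype; R; OF). Points are libraries, bars their mean, and each panel's axis starts at 0. PLOD1 in U2932 goes from 14.5 and 15.7 CPM under isotype to 50.04 to 58.1 with the antibodies, and SLC2A3 in TMD8 from 2.17 and 2.34 to 6.504 to 8.17.

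Of all members, PLOD1 changed most in U2932. PLOD1, a lysyl hydroxylase that prepares collagen for cross-linking, lies at chr1:11934205-11975538 on the plus strand of GRCh38 in GENCODE 29. It had 15.7 and 14.5 CPM under isotype, 54.96 and 50.04 with R, and 58.1 and 58.0 with OF. The anti-CD20 libraries were thus all more than 3 times the isotype ones, a fold of 3.48 for R (log2 1.80 ± 0.11, adjusted p = 1.15e-11) and of 3.86 for OF (log2 1.95 ± 0.11, adjusted p = 1.68e-12). P4HA1, the catalytic subunit of the collagen prolyl hydroxylase, rose 1.53-fold and 1.33-fold, and P4HA2, its isoform, did not pass (0.21 ± 0.20 and 0.30 ± 0.20).

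VEGFA was the secreted factor that moved most. It had 8.15 and 8.59 CPM under isotype, 17.96 and 17.6 with R and 16.5 and 18.96 with OF, and rose 2.12-fold with each (adjusted p = 7.99e-07 and 9.42e-07). VEGFB, its relative, rose 1.33-fold and 1.47-fold (adjusted p = 0.0204 and 0.00188). ADM, a classic HIF-1 target that U2932 transcribed at 49.7 to 57.2 CPM, did not pass, with log2 changes of −0.01 ± 0.10 and −0.13 ± 0.10. The mitophagy receptors BNIP3 and BNIP3L passed with R by small changes (0.26 ± 0.11, adjusted p = 0.0799, and 0.22 ± 0.10, adjusted p = 0.0922) and not with OF (adjusted p = 0.38 and 0.245). Each of these calls was lost in 11 of 19 alternatives, leaving out either OF library among them.

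Of the oxygen sensors and the remaining HIF-1 targets, JMJD6 alone passed as higher in U2932. HIF1A had 110 and 121 CPM under isotype against 102 and 102 with R and 96.4 and 97.8 with OF, below both isotype libraries in all 4. Its log2 change of −0.18 ± 0.09 for R missed the limit (adjusted p = 0.151), and that of −0.24 ± 0.09 for OF passed (adjusted p = 0.0446). EGLN1, the main HIF prolyl hydroxylase, did not pass (−0.04 ± 0.11 and −0.07 ± 0.11), nor did ANKRD37 (0.03 ± 0.13 and 0.09 ± 0.14) or NDRG1, a stress-induced gene with 19 to 44 counts per U2932 library (−0.24 ± 0.33 and −0.31 ± 0.34). For ANKRD37 the 95% interval with R was −0.25 to 0.30 and for EGLN1 −0.26 to 0.18.

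MXI1, which encodes a MAX partner that opposes MYC, was the member that fell most. It had 6.31 and 6.35 CPM under isotype, 3.26 and 3.92 with R and 3.62 and 4.22 with OF, and on the log2 scale its changes were −0.82 ± 0.19 for R (adjusted p = 0.00217) and −0.69 ± 0.19 for OF (adjusted p = 0.00792). KDM3A, a histone demethylase, fell with OF (−0.33 ± 0.11, adjusted p = 0.0224) and did not pass with R (−0.16 ± 0.11). JMJD6, of the same protein superfamily, rose 1.29-fold with R and 1.23-fold with OF (adjusted p = 0.00465 and 0.0177). PDK1, the kinase that keeps pyruvate out of the mitochondrial dehydrogenase and a standard HIF-1 target, fell with OF (−0.34 ± 0.12, adjusted p = 0.0342) and did not pass with R (−0.14 ± 0.12).

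With OF in U2932, 21 members were higher and 4 lower of the 38 tested, where 18.7% of all genes tested were higher and 17.8% lower. The median change was 0.32 over the members and 0.01 over all genes. With at least 1.5-fold, 6 members were higher and 1 lower, against 5.9% and 5.21% of all genes. The comparisons of R and of OF share their isotype libraries. All 4 anti-CD20 libraries lay above both isotype libraries for 25 of the 38 members, against 23.6% of all genes, and below both for 3 (HIF1A, MXI1 and PDK1), against 24.6%.

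**Figure D3:**
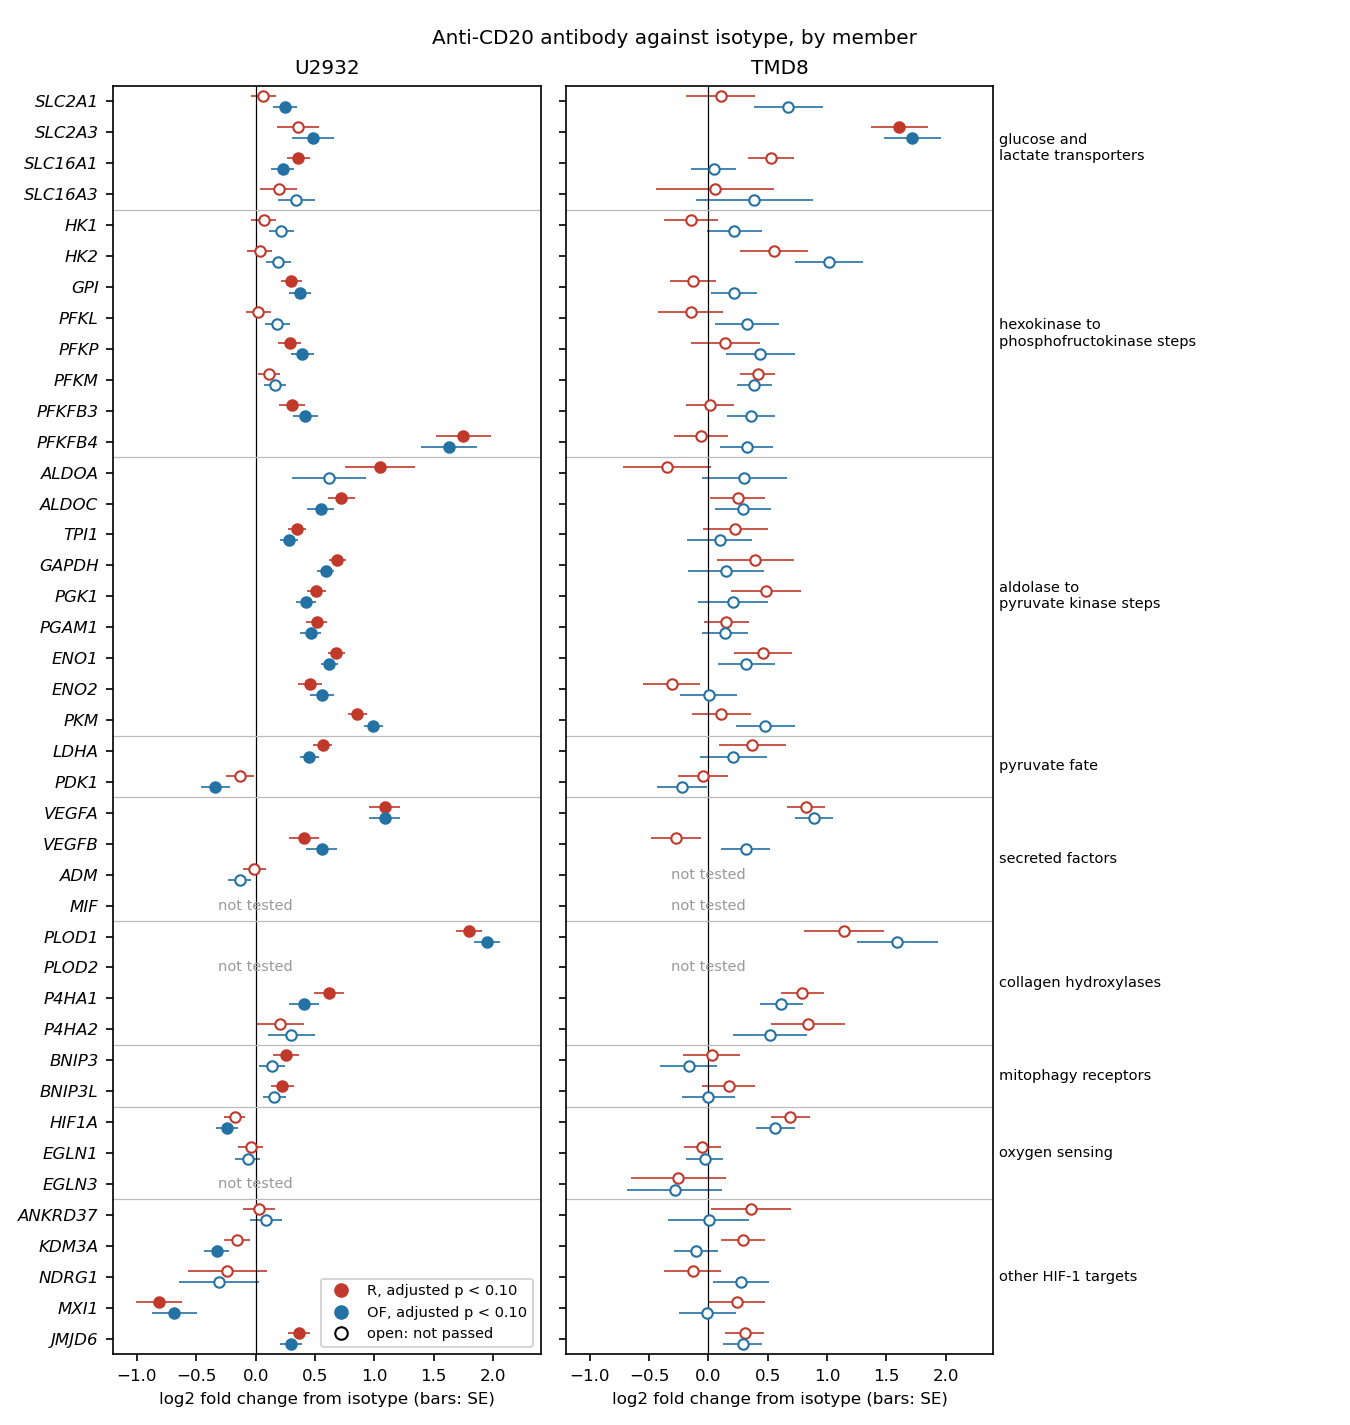
Log2 fold changes from isotype (x axis) of each member (y axis, by role) with R (red) and OF (blue) in U2932 and TMD8; bars are standard errors, filled points passed an adjusted p of 0.10 and open points did not. In U2932 the 9 members from aldolase to pyruvate kinase all lie right of 0, PLOD1 reaches 1.95, and MXI1 lies at −0.82 and −0.69.

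These U2932 counts depended on which libraries gave the spread. When all 12 libraries were fitted together, 9 members passed with R (PFKFB4, ALDOC, PGAM1, ENO1, PKM, VEGFA, PLOD1 and P4HA1 higher, MXI1 lower) and 8 with OF, which had ENO2 in place of ALDOC and P4HA1. That fit called 592 of 16187 genes higher and 615 lower with R, and 637 and 770 with OF. Without OF replicate 1, 17 members passed with OF and the 4 lower calls were lost, and without OF replicate 2, 16 passed. Scaling by total count alone moved the all-gene median to −0.12 for R, where 16 members were then higher and 3 lower among 1710 genes higher and 3705 lower. For OF it moved to −0.07, and 19 members were higher and 5 lower among 1971 genes higher and 3485 lower. A correction for GC content ended the calls with OF for TPI1 (log2 0.14, adjusted p = 0.12), HIF1A (−0.10, adjusted p = 0.27), PDK1 (−0.20, adjusted p = 0.13) and SLC2A1 (0.15, adjusted p = 0.15). It also brought BNIP3L within the limit as higher and ADM as lower (−0.28, adjusted p = 0.00978), and ADM passed with total counts as well (−0.21, adjusted p = 0.095).

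In TMD8 fewer members passed and the spread between replicates was wider. The median standard error of a member's log2 change was 0.24 with R, against 0.105 in U2932. SLC2A3 was the one member that passed with R and the one that passed with OF, in fits where 0.401% and 0.471% of all 14227 genes tested were higher and 0.246% and 0.344% lower. It lies at chr12:7919230-7936275 on the minus strand. SLC2A3 had 2.34 and 2.17 CPM under isotype, 6.504 and 7.15 with R and 8.17 and 6.58 with OF. All 4 anti-CD20 libraries stood more than 2 times over both isotype libraries, and the fold was 3.05 for R (log2 1.61 ± 0.24, adjusted p = 0.0815) and 3.29 for OF (log2 1.72 ± 0.24, adjusted p = 0.0904). The call with R was lost without either R library and without isotype replicate 2, and the call with OF was lost in 5 of the 6 fits that left out 1 library, the exception being that without isotype replicate 2.

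Deviations of same-numbered TMD8 libraries correlated across genes at 0.69 between OF and isotype, but at 0.22 and 0.23 between R and these. With the replicate number as a block more members passed. With R, 10 members were then higher and none lower (SLC2A3, SLC16A1, HK2, PFKM, PGK1, VEGFA, PLOD1, P4HA1, P4HA2 and HIF1A), against 8.99% of all genes higher and 8.73% lower. With OF, 7 were higher and none lower (SLC2A1, SLC2A3, HK2, VEGFA, PLOD1, P4HA1 and HIF1A), against 7.45% and 6.87%. PLOD1 had 12.4 and 24.9 CPM under isotype, 40.5 and 41.8 with R and 45.2 and 67.2 with OF, so the groups did not overlap although its isotype libraries differed by a factor of 2. Its log2 changes were 1.14 ± 0.34 and 1.59 ± 0.34 without the block (adjusted p = 0.187 and 0.133) and 1.21 and 1.62 with it (adjusted p = 0.0116 and 0.0058).

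VEGFA in TMD8 had 23.5 and 28.3 CPM under isotype, 47.2 and 44.1 with R and 47.1 and 48.6 with OF. These changes of 0.82 ± 0.16 and 0.89 ± 0.16 stood at the limit without the block (adjusted p = 0.104 and 0.101) and within it with the block (adjusted p = 0.0111 and 0.00997). HIF1A, at chr14:61695513-61748259 on the plus strand, had 102 and 97.0 CPM under isotype against 174 and 144 with R and 148 and 144 with OF. In contrast to U2932, all 4 anti-CD20 libraries were above both isotype libraries, with log2 changes of 0.69 ± 0.17 and 0.56 ± 0.17 (adjusted p = 0.144 and 0.206, and 0.0173 and 0.0352 with the block). HK2 had 68.5 and 126 CPM under isotype, 147 and 136 with R and 172 and 217 with OF, log2 changes of 0.55 ± 0.29 and 1.01 ± 0.29 (adjusted p = 0.398 and 0.197, and 0.0996 and 0.0225 with the block). P4HA1 changed by 0.79 ± 0.18 and 0.61 ± 0.18 (adjusted p = 0.133 and 0.204, and 0.0108 and 0.0286 with the block).

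The enzymes of the later steps did not pass in TMD8 in this fit, though PGK1 passed with R under the block (log2 0.53, adjusted p = 0.089). ENO1 had 2237 and 1956 CPM under isotype, 2901 and 2836 with R and 2967 and 2245 with OF, all 4 above both isotype libraries (log2 0.46 ± 0.24 and 0.32 ± 0.24, adjusted p = 0.411 and 0.619). GAPDH had 3279.8 and 2187 CPM under isotype, 3665 and 3494 with R and 3667 and 2370.1 with OF, and PKM had 1317 and 1973 under isotype, 1735 and 1788 with R and 2201 and 2354 with OF. In both genes isotype replicates lay far apart, and the GAPDH groups overlapped for OF. The median log2 change of the 9 members from aldolase to pyruvate kinase was 0.23 with R and 0.21 with OF, against −0.02 and −0.01 over all genes tested. For GAPDH the 95% interval was −0.37 to 1.16 with R, which takes in the U2932 value of 0.69. Over all members, the 4 anti-CD20 libraries of TMD8 lay above both isotype libraries for 10 of the 38 tested, against 12% of all genes, and below both for none, against 13.6%.

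Leaving out the 2 TMD8 libraries that stood apart raised the counts. Without OF replicate 2 and isotype replicate 2, a choice made after seeing the data, 13 members were higher with R and 1 lower, and 16 were higher with OF and 1 lower, BNIP3 in both cases. ENO1 and PKM were among the higher with each antibody, but calls also rose over all 14391 genes tested, to 2289 higher and 2072 lower with R and 1802 and 1567 with OF. In that fit the R libraries are the only replicated TMD8 condition, and the lone OF and isotype libraries are assumed to vary as they do. Scaled by total counts alone no member passed, the all-gene median for R was −0.16, and 26 genes were higher and 40 lower for R and 12 and 14 for OF.

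**Figure D4:**
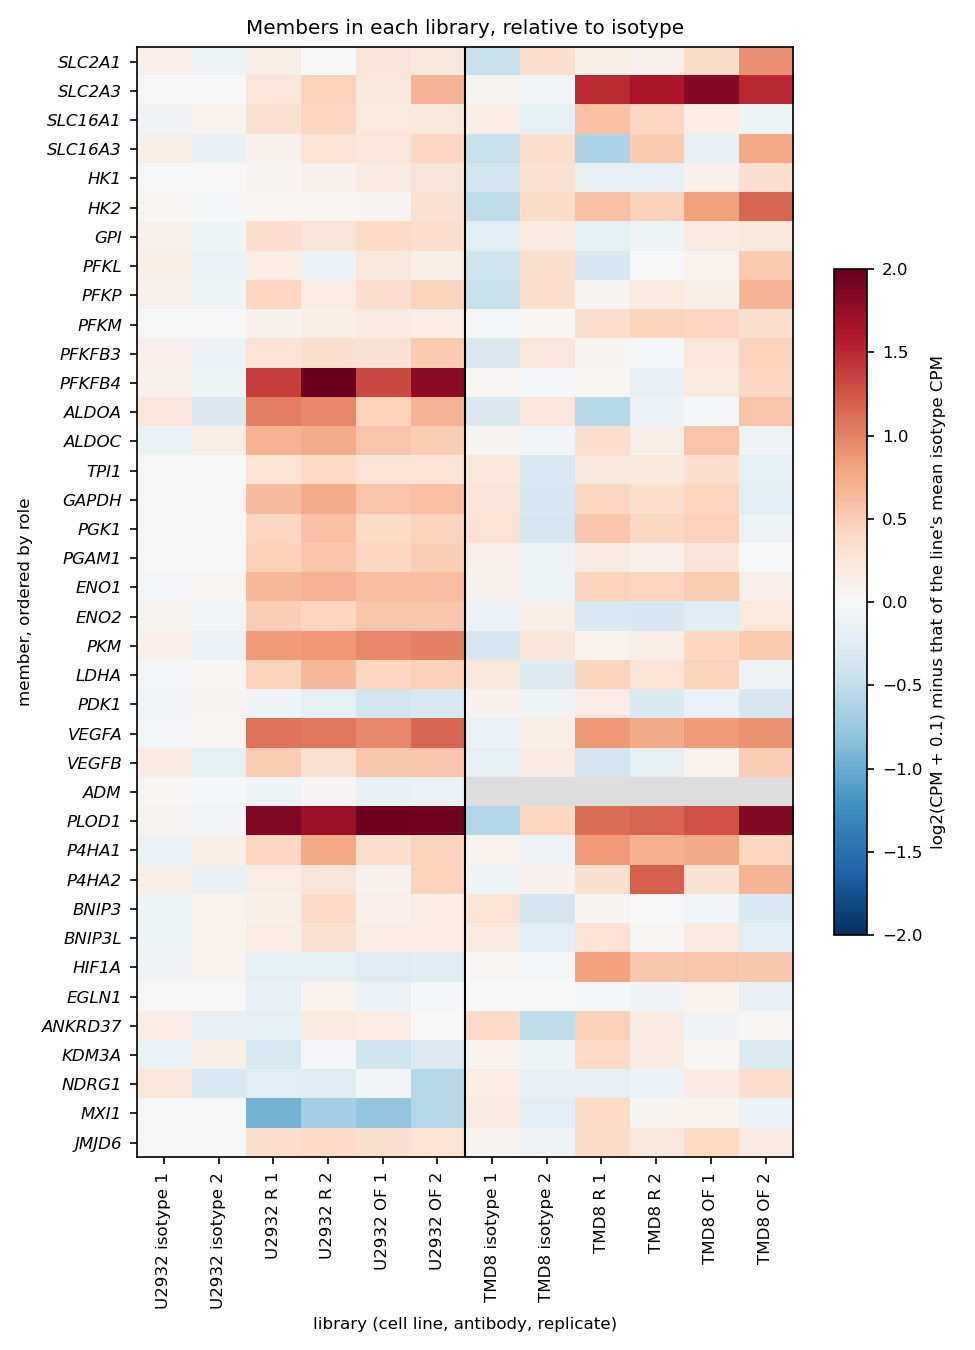
Log2(CPM + 0.1) of the 38 members tested in U2932, in each of the 12 libraries (x axis) minus that of the line's mean isotype CPM, with red above and blue below isotype and grey for a member not tested in that line. PFKFB4, ALDOC, PKM and PLOD1 are red in the 4 anti-CD20 libraries of U2932, and SLC2A3, VEGFA, PLOD1 and HIF1A in those of TMD8, where GAPDH, PGK1 and LDHA are blue in isotype replicate 2.

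R and OF were not told apart by any member. With R set against OF, 0 of the 38 members passed in U2932, at the wider limit of an adjusted p under 0.30 that the study used there (0% of all genes were higher and 0.00683% lower), and 0 of the 38 in TMD8 at 0.10 (0% and 0%). In U2932 0 members, and in TMD8 2 (SLC16A1 and VEGFB), had an unadjusted p under 0.05, as did 5.1% and 4.09% of all genes, and DESeq2 also called 0 members in both lines. The study did report genes differing between R and OF in TMD8 at 0.10. Here no gene of all those tested passed in that comparison, in the main fit or in DESeq2. Without the filter on low counts, 2 genes were higher with R and 69 lower, with 0 members among them. The log2 difference, R minus OF, ran from −0.18 to 0.43 in U2932, with the 95% interval within 2-fold for 37 of the 38 members. For PLOD1 it was −0.15 (−0.36 to 0.06) and for VEGFA −0.00 (−0.26 to 0.26). In TMD8 it ran from −0.65 to 0.48, and the interval was within 2-fold for 27 of the 38. VEGFB in TMD8 had 17.1 and 19.8 CPM with R against 23.6 and 31.8 with OF (−0.59, −1.09 to −0.08, adjusted p = 0.733). Without both TMD8 libraries that stood apart, PKM alone passed, lower with R, in a fit that called 308 genes higher and 268 lower.

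The lines' responses were compared in one fit of the 12 libraries, as the mean change with R and OF in U2932 minus that in TMD8. Of the 39 members tested 3 passed, 1 higher and 2 lower, against 0.5% and 0.519% of all 16187 genes. PFKFB4 rose in U2932 and stayed at 4.16 to 6.25 CPM in every TMD8 library, a difference of 1.56 ± 0.31 (adjusted p = 0.0664). SLC2A3 changed more in TMD8 (−1.24 ± 0.26, adjusted p = 0.0769), and HIF1A was lower with antibody in U2932 and higher in TMD8 (−0.83 ± 0.15, adjusted p = 0.0473). With the replicate block 7 members passed, 3 higher and 4 lower against 3.33% and 3.52% of all genes, adding ENO2 (0.67, adjusted p = 0.0397) and PKM (0.62, adjusted p = 0.0638) as higher in U2932 and HK2 (−0.71, adjusted p = 0.092) and MXI1 (−0.87, adjusted p = 0.0317) as lower. PLOD1 and VEGFA did not pass, with differences of 0.52 (95% interval −0.20 to 1.24) and 0.24 (−0.13 to 0.60), so their U2932 and TMD8 changes were not told apart. Each of the 3 calls was lost without U2932 R replicate 2 and without TMD8 R replicate 1. The same held without any one of the U2932 OF and isotype libraries.

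Other genes of the same pathways were read beside them, listed by general knowledge but with earlier results of these data known. Their counts in U2932 stand against 16.8% of all genes higher and 17.4% lower with R and 18.7% and 17.8% with OF. Of 24 further HIF-1 targets tested, R gave 11 higher and 1 lower and OF gave 8 higher and 1 lower, with a median log2 change of 0.24 in each. DDIT4, an inhibitor of mTORC1, had 7.12 and 7.01 CPM under isotype and 19.1 to 24.4 with the antibodies (1.55 ± 0.13 with R, adjusted p = 3.6e-09). VLDLR, a lipoprotein receptor, changed by 2.30 ± 0.43 and 2.695 ± 0.42 from 0.18 and 0.48 CPM, HMOX1, heme oxygenase, by 1.07 ± 0.15 and 0.97 ± 0.16, AK4, a mitochondrial adenylate kinase, by 0.67 ± 0.11 and 0.65 ± 0.11, and MAFF, a small MAF factor, by 0.64 ± 0.26 and 0.75 ± 0.26. In TMD8 AK4 passed with both antibodies (1.09 ± 0.16, adjusted p = 0.076, and 0.98 ± 0.16, adjusted p = 0.094) and DDIT4 with OF (1.21 ± 0.18, adjusted p = 0.091). These TMD8 calls were fragile. At an adjusted p under 0.05, 0 genes of all those tested passed there with either antibody. With only the 4 libraries compared, 0 passed with OF. The VLDLR response differed between the lines (3.18 ± 0.43, adjusted p = 0.014), as it had 4.34 and 5.04 CPM under isotype in TMD8 and 2.06 to 3.60 with the antibodies.

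Further glycolytic and pyruvate genes gave shares near those of all genes with OF: in U2932 R raised 4 of the 16 tested and lowered none, and OF gave 4 higher and 3 lower, none by 1.5-fold. Of 12 HIF subunits and regulators, R gave 5 higher and 3 lower, and OF gave 3 of each. The coactivators CREBBP and EP300, acetyltransferases that HIF-1 recruits, both fell: CREBBP from 70.9 and 64.6 CPM under isotype to 28.9 to 40.2 with the antibodies (−1.04 ± 0.11 with R and −0.75 ± 0.11 with OF), and EP300 by −0.79 ± 0.11 and −0.63 ± 0.11. In the TMD8 libraries these 2 genes were highest in isotype replicate 2 and OF replicate 2, at 240.0 and 146 CPM for CREBBP against 59.7 to 94.2 in the others. Among 9 partners of MYC, MAX and MXI1, 2 were higher and 1 lower with each antibody in U2932. In TMD8 none of the 9 passed with R, and MYC passed with OF (1.19 ± 0.16, adjusted p = 0.0851), a call lost with only the 4 libraries compared. MYC had 2277 and 4141 counts there under isotype, 4091 and 3794 with R and 4528 and 4961 with OF. The isotype libraries were the largest of that line. With R against OF, 0 of the 9 passed in either line. MYC counts were also higher with OF in U2932, at 190 and 183 under isotype, 220 and 188 with R and at least 222 in each OF library. These OF libraries held fewer counts in all than the isotype libraries, so the higher MYC level with OF was not confined to TMD8. In U2932 MXD4, another MAX partner that opposes MYC, rose by 0.63 ± 0.10 and 0.73 ± 0.10, and MGA, a MAX-binding repressor, fell by 0.60 ± 0.12 and 0.68 ± 0.12.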

How the data were processed

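RNA-seq libraries of U2932 and TMD8 (12 in all, 2 for each of 6 conditions) were analysed from the raw gene counts that the authors deposited. Per the study's methods and the submitters' processing notes, the authors trimmed reads with Trim Galore 0.6.0 and cutadapt, aligned them with STAR 2.7.0e to an Ensembl human reference and deposited counts without normalization. The build, annotation release and use of strand are not given in the sources used here. The 12 count columns were matched to libraries by name and 0 columns were left out. Gene symbols, GC content and lengths came from GENCODE 29 on GRCh38 by Ensembl ID.

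Counts were tested in R 4.3.3 with edgeR 4.0.16: filterByExpr (at least 10 counts), TMM, and a quasi-likelihood fit of the 6 libraries of a line, or of all 12 for the comparison of lines and of their responses. Genes passed at a Benjamini-Hochberg adjusted p under 0.10, or 0.30 for R against OF in U2932. P-values were adjusted over all genes tested. CPM are TMM-normalized over the 12 libraries. Intervals are 95% and come from the fit. All members were described. Of the other pathway lists, at most 6 genes each were named. These passed the limit with both antibodies in a line and changed at least 1.5-fold with each. MYC, TALDO1, TKT and FLT1 were named outside this rule. The members, lists and tests were chosen with earlier results of these data known. The median standard error of a log2 change with R was 0.124 over all genes in U2932 and 0.251 in TMD8. The code was tested on simulated counts in which 200 genes were changed. These had the same spread in both lines and no library that stood apart, so they check the code and not the error rate in TMD8.

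The study split each line into 2 cultures and treated these with all 3 antibodies, but the sources used here do not tie a replicate number to a culture. Deviations of same-numbered libraries correlated across genes at −0.05 to 0.1 in U2932 and at 0.22, 0.23 and 0.69 in TMD8. The alternatives were DESeq2 1.42.0, other scalings, filters and limits, a replicate block, a GC correction (lowess, span 0.3), fits of all or only the compared libraries, leaving out each library and, for levels per length, the mean length of coding transcripts. Bases before the start were searched for motifs in Python 3.11.15. Plots were made in matplotlib 3.10.9. Some genes of the lists are not reported here.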

Additional observations from a re-analysis of the deposited data

Results flagged for a closer look

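For 3 members the change with anti-CD20 antibodies differed between the cell lines in a test of the difference itself (edgeR quasi-likelihood fit of 12 libraries, adjusted over all genes). HIF1A differed by −0.83 ± 0.15 on the log2 scale, U2932 minus TMD8 (adjusted p = 0.0473), with all 4 antibody libraries below both isotype libraries in U2932 and above both in TMD8. PFKFB4 differed by 1.56 ± 0.31 (adjusted p = 0.0664), with 1.88 to 2.15 CPM under isotype and 5.20 to 8.10 with antibody in U2932 against 4.16 to 6.25 CPM in all 6 TMD8 libraries. SLC2A3 differed by −1.24 ± 0.26 (adjusted p = 0.0769), from 5.64 and 5.65 CPM under isotype to 6.60 to 9.11 with antibody in U2932, and from 2.17 and 2.34 to 6.504 to 8.17 in TMD8. With a replicate block the adjusted p-values were 0.00602, 0.01 and 0.0161. At an adjusted p under 0.05 HIF1A alone passed. Without any one of U2932 R replicate 2, the U2932 OF and isotype libraries or TMD8 R replicate 1, none of the 3 passed.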

How the results depend on the processing

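The number of members passing was recomputed under each alternative, and the cause of the changes was not tested. For U2932, all 12 libraries gave 9 with R and 8 with OF in place of 23 and 25, a 1.5-fold limit gave 10 and 7, and leaving out 1 library gave 19 to 23 and 16 to 26, the lowest without OF replicate 2. In TMD8, where 1 passed with each antibody, the counts with R and OF were 5 and 4 in DESeq2, 6 and 5 without a filter, 10 and 7 with the replicate block, 4 and 5 with the GC correction, 10 and 8 with both, and 8 and 7 with all 12 libraries; they were 0 and 0 with total counts, with only the 4 libraries compared and at an adjusted p under 0.05. With OF, RLE size factors and a minimum of 10 counts in every library each gave 2. Leaving out 1 library gave 0 to 1 with R (0 without R replicate 1 or R replicate 2) and 0 to 5 with OF (5 without isotype replicate 2, 0 without any other), and leaving out both TMD8 libraries that stood apart gave 14 and 17. R against OF stayed at 0 in every alternative, except 1 in TMD8 without those 2 libraries. U2932 against TMD8 gave 20 to 32 around 27. Against 3 members whose response differed between lines, 7 passed with the block, alone or with the GC correction, 1 at 0.05, 12 without those 2 libraries and 0 to 7 without 1 library, with 7 without TMD8 isotype replicate 1. Over fits that left out libraries BNIP3 with R in TMD8 ran from −0.28 to 0.41 and GAPDH between the lines from −0.26 to 0.33, and both passed as lower without those 2 libraries. In DESeq2 the genes whose response differed split into 223 higher and 349 lower. The replicate block changed no other count by over 1.5 times. With mean transcript lengths, levels per length moved by over 1 SD for 33 of 39 members in U2932 and 20 of 39 in TMD8, and GAPDH, ENO1 and PKM stayed on top by mean, with GAPDH (3043 ± 418 TPM) and ENO1 (3032 ± 163) within the spread of each other in TMD8.

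With 2 libraries per condition the spread is poorly known, and depth limits NDRG1, ALDOA, PFKFB4 and SLC2A3, each under 10 CPM in every library.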

Other observations

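Genes next to the members were also read. In U2932 some enzymes of the pentose phosphate pathway, which branches from glycolysis to make NADPH and ribose, were higher with both antibodies. TALDO1, transaldolase, changed by 0.54 ± 0.08 with R and 0.49 ± 0.08 with OF, and TKT, transketolase, by 0.28 ± 0.09 and 0.43 ± 0.09. Neither passed in TMD8. Of 9 other collagen-modifying enzymes tested in U2932, 2 were higher and 1 lower with R and 2 higher with OF, none by 1.5-fold, against 16.8% and 17.4% of all genes for R and 18.7% for OF. Of the VEGF ligands and receptors beside VEGFA and VEGFB, 2 were tested in U2932. FLT1, a VEGF receptor, had 28 and 18 counts there under isotype, 5 and 7 with R and 11 and 11 with OF. It passed as lower with R (−1.62 ± 0.50, adjusted p = 0.016) and did not pass with OF (−0.68) or in R against OF. These genes were named after their values were seen.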
